A study of Callithrix jacchus with 39 samples.

Results

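Promoter-like regions that carried reproducible H3K27ac in most, but not all, of 8 marmoset tissues were examined here. In each tissue an H3K27ac peak was kept if it overlapped a peak of the other replicate by at least 1 bp, and the kept peaks of the 8 tissues were merged into a catalogue of 65161 regions. A region counted in a tissue where a kept peak of that tissue overlapped it. The members are the regions counted in 5, 6 or 7 tissues that overlapped an H3K4me3 peak of any of the 15 H3K4me3 libraries. They numbered 4708, which is 7.23% of the catalogue and 19.9% of its 23637 promoter-like regions. Of these 1351 were counted in 5 tissues, 1406 in 6 and 1951 in 7. The members, and the tissues that lack them, were selected on the H3K27ac peak lists, so all H3K27ac values are given as descriptions without a test. H3K4me3 did not decide which tissue lacks a region, but an H3K4me3 peak in any tissue admits a region, so the H3K4me3 tests were repeated on regions admitted by the other 7 tissues alone and on regions admitted without H3K4me3. The latter repeat bears on the comparisons of shares only, since comparisons of peak strength use only regions with an H3K4me3 peak.

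The tissues were heart, skeletal muscle, spleen, kidney, colon, stomach, liver and pancreas of the common marmoset (Callithrix jacchus), a New World monkey. Each was profiled by ChIP-seq with 2 numbered replicates per mark, except that heart had a single H3K4me3 library, replicate 2. The labels name no treatment or genotype and leave unsaid whether replicates 1 and 2 are separate animals. Each p-value given here therefore concerns differences between tissues and not between individuals. The tissues were compared on a shared set of regions, and a region lacking in some tissues is counted in the others. The differences of the tissues are thus not independent of each other. The data were 1 deposited peak list per library, with 24590 to 51554 peaks for H3K27ac and 16386 to 24424 for H3K4me3. Read totals were not used here, so depth is unknown. Throughout, a tissue is said to lack a region, or H3K27ac at it, where no kept peak of that tissue overlapped it. A called peak that did not overlap one of the other replicate may still be present there. In whole tissue, a mark that is weaker in every cell and a mark carried by fewer cells cannot be told apart. No gene annotation of calJac3, the build of the files, was used, so regions are given by position, no gene is named and the tissue labels were not checked against marker genes.

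H3K4me3 is deposited around active or poised transcription start sites by the SET1 and MLL methyltransferase complexes, and many CpG island promoters carry it whether or not their gene is highly transcribed. H3K27ac is written by the acetyltransferases CBP and p300 and is removed by histone deacetylases. It marks promoters and enhancers in use, and it turns over faster than methylation. A promoter can hold H3K4me3 in a tissue where its acetylation is low. Liver, pancreas, kidney, colon and stomach are rich in epithelial cells, spleen is made largely of blood cells, and heart and skeletal muscle are made of striated muscle fibres with vessels and connective tissue.

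Most members carried H3K4me3 far beyond the single library that the rule asks for. H3K4me3 was present in all 15 libraries at 2499 members (53.1%) and in at least 1 library of all 8 tissues at 3249 (69.0%). At the other end, 240 members (5.10%) had an H3K4me3 peak in 1 library alone, and 832 (17.7%) in 7 or fewer, so for these the name promoter-like rests on little. The share with H3K4me3 in all 8 tissues rose with breadth, from 53.1% of the regions in 5 tissues to 66.9% in 6 and 81.5% in 7. Just outside the rule it was 40.5% of the 1406 promoter-like regions in 4 tissues and 95.6% of the 7391 in all 8. The median length of the members was 1647 bp (range 427 to 11660 bp). By breadth it was 1645 bp in 5 tissues, 1613.5 bp in 6 and 1671 bp in 7, against 1575 bp in 4 and 2057 bp in 8.

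Skeletal muscle, spleen and heart were the tissues that most often lacked a member. A member lacked 1 to 3 tissues, which made 8816 region-tissue pairs. Skeletal muscle accounted for 1901 of them, or 40.4% of the members, spleen for 1721 (36.6%) and heart for 1540 (32.7%). Kidney lacked 1224 (26.0%), colon 1111 (23.6%), stomach 571 (12.1%), liver 397 (8.43%) and pancreas 351 (7.46%). Among regions counted in 7 tissues the one missing was skeletal muscle in 572 cases (29.3%), spleen in 404, heart in 289, colon in 287 and kidney in 277. Stomach was the missing tissue in 51, liver in 44 and pancreas in 27. List length moved with part of this order, the H3K27ac lists being longest in liver and shortest in heart. When all lists were reduced to the length of the shortest (16386 peaks), skeletal muscle lacked 1563 of 3784 members, spleen 1148, colon 1020, kidney 947, heart 780, liver 703, pancreas 420 and stomach 364. Skeletal muscle and spleen still ranked above the rest, whereas heart ranked below colon and kidney and was close to liver.

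A peak in 1 of the 2 replicates was the usual state in the tissue that lacked a member. Of the 8816 pairs, 5412 (61.4%) had an H3K27ac peak in exactly 1 replicate, 3011 (34.2%) had none, and 393 (4.46%) had peaks in both replicates that did not overlap each other. Over all promoter-like regions of any breadth, 26.8% of the lacking pairs had a peak in exactly 1 replicate. Taken by tissue, the 1-replicate share was 66.5 ± 14.6% (SD, n = 8) and the share without any peak 28.8 ± 15.3%. Skeletal muscle (51.2%), colon (45.0%) and spleen (41.1%) had the highest shares without any peak. Heart had 28.1%, stomach 23.1%, liver 18.4%, kidney 12.8% and pancreas 10.5%. In absolute numbers skeletal muscle had 973 members with no H3K27ac peak in either library and pancreas had 37.

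**Figure D1:**
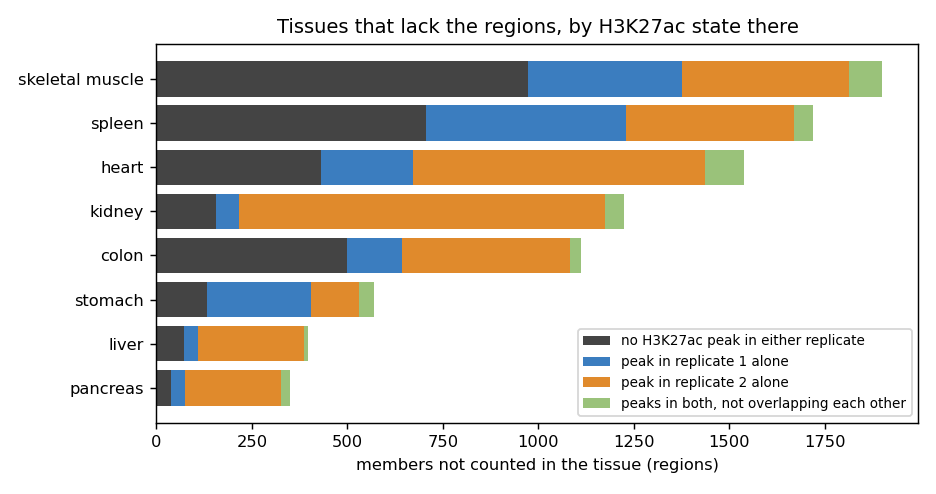
Members not counted in each tissue (horizontal axis, regions), split by the H3K27ac state of that tissue. Skeletal muscle holds 1901 and pancreas 351, and in kidney the bar is mostly regions with a peak in replicate 2 alone (960 of 1224).

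Lone peaks were divided unevenly between the replicates of several tissues. Kidney was the most uneven, with 960 of its 1224 members (78.4%) peaked in replicate 2 alone and 58 (4.74%) in replicate 1 alone. Pancreas (71.2%) and liver (70.0%) also had most of their lacking members peaked in replicate 2 alone, and heart had 49.7%. Stomach leaned the other way, with 272 of 571 (47.6%) in replicate 1 alone, while spleen (524 and 440 regions) and skeletal muscle (403 and 438) were nearly even. Leaving out a list and letting the remaining one stand for the tissue must lower the count, since it adds the lone peaks of the remaining list. Without replicate 1, kidney lacked 215 members, liver 108, pancreas 76, heart 671 and colon 642. Without replicate 2, stomach lacked 259 and spleen 1147. Skeletal muscle lacked 1376 without replicate 1 and 1412 without replicate 2.

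The peaks seen in 1 replicate alone were of middling strength within their lists. The authors' fold enrichment was turned into a percentile within each list, where 100 is the strongest peak. Over the 16 H3K27ac libraries the median percentile of peaks seen in that replicate alone was 44.8 ± 6.43 (SD over libraries; range 33.7 to 56.9). At members counted in the same tissue it was 67.0 ± 5.01 (range 59.4 to 78.5), and at promoter-like regions of all 8 tissues 86.7 ± 2.30. The ranges of the first and the second did not overlap. Where neither replicate had a peak, the nearest H3K27ac peak of the tissue was seldom adjacent. It lay a median of 16.9 ± 7.62 kb away (SD, n = 8 tissues), from 5.49 kb in pancreas to 28.3 kb in colon, and 14.4 ± 6.89% of such members had one within 1 kb.

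Members lacking 2 or 3 tissues were unevenly spread over the combinations, and the most frequent joined tissues that often lacked a member. All 28 possible pairs of tissues occurred, with a median of 28.5 members and a range of 3 to 181. Heart with skeletal muscle (181), heart with spleen (175) and kidney with skeletal muscle (112) together held 33.3% of the regions counted in 6 tissues. Of the 56 possible triplets 54 occurred, with a median of 16 members. Heart, skeletal muscle and spleen together were missing at 220 members, 16.3% of the regions counted in 5 tissues. The next triplets were heart, kidney and skeletal muscle (113) and heart, kidney and spleen (78). With lists of equal length the first pair held 106 members and the first triplet 84. Without heart H3K27ac replicate 1 they held 95 and 153.

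In the triplet of heart, skeletal muscle and spleen both marks were often missing completely. At 99 of its 220 members (45.0%) none of the 6 H3K27ac libraries of these tissues had a peak, and at 106 (48.2%) none of their 5 H3K4me3 libraries had one. Neither mark was found at 67 members (30.5%). For heart, kidney and skeletal muscle the corresponding values were 9 of 113 (7.96%), 28 (24.8%) and 6 (5.31%). For the pair of heart and skeletal muscle they were 40 of 181 (22.1%), 56 (30.9%) and 25 (13.8%). Members of the first triplet had a median length of 2455 bp, against 1587 bp for the second. These counts describe combinations that were picked for being frequent, and the differences between them were not tested.

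Colon was often missing together with stomach. Of the 520 members of 5 or 6 tissues that lacked stomach, 254 (48.8%) also lacked colon, whereas colon was lacked by 29.9% of all members of 5 or 6 tissues. Since a member that lacks stomach has fewer places left for other lacking tissues, this latter share is not the value that independence would give. The corresponding shares were 32.9% and 19.3% without colon H3K27ac replicate 1, and 39.8% and 24.8% without replicate 2. These shares are descriptions, since the H3K27ac lists fixed them.

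**Figure D2:**
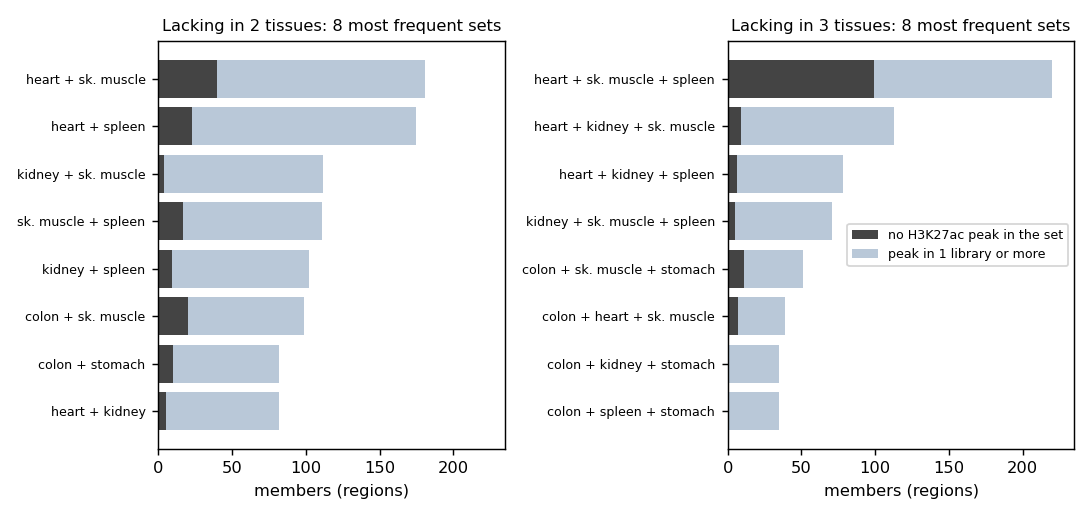
The 8 most frequent pairs (left) and triplets (right) of tissues lacking a member; bar length is the number of members, and the dark part is those with no H3K27ac peak in any library of the set. The triplet of heart, skeletal muscle and spleen has the longest bar (220) and the longest dark part (99).

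H3K4me3 was usually present in the tissue where a member was not counted, mostly together with an H3K27ac peak in 1 replicate. Of the 8816 lacking pairs, 6638 (75.3%) overlapped an H3K4me3 peak of the same tissue. Over all promoter-like regions the corresponding share of lacking pairs was 38.9%, and over pairs that did have H3K27ac it was 92.0%. Of the 6638 lacking pairs with H3K4me3, 4501 had an H3K27ac peak in 1 replicate and 1818 had none. The other 319 had peaks in both replicates that did not overlap each other. By tissue, the share of lacking members with H3K4me3 was 84.3% in kidney, 80.1% in pancreas, 78.1% in stomach, 78.1% in liver, 77.3% in skeletal muscle, 75.2% in spleen, 74.9% in colon and 63.2% in heart. The mean was 76.4 ± 6.10% (SD, n = 8), and 64.2 ± 6.80% had H3K4me3 in every library of the tissue. Heart, the lowest, was read from its single library.

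With regions of 5, 6 and 7 tissues pooled, H3K4me3 was nevertheless less frequent where a member was not counted than where it was counted. Members counted in the same tissue had H3K4me3 in 88.1 ± 4.93% of cases, and the lacking minus counted difference was -11.7 ± 6.56 percentage points (SD, n = 8). The sign was negative in 8 of 8 (two-sided exact permutation of the signs, p = 0.00781 before and after adjustment). This p is the smallest that the 256 sign patterns of 8 tissues allow, and the Benjamini-Hochberg adjustment covered the 5 H3K4me3 comparisons reported here. Breadth was not matched, and a region of 5 tissues gives more lacking and fewer counted pairs than a region of 7. The lacking share rose with breadth, from 69.6 ± 8.41% at regions of 5 tissues to 86.7 ± 4.72% at regions of 7 tissues. The counted share was taken over regions of 5 to 7 tissues together, so no counted share of the same breadth stands beside these. How much of the difference comes with breadth was not tested. The size of the difference was not uniform. In colon the shares were 74.9% and 93.3%, in heart 63.2% and 81.3% and in liver 78.1% and 94.7%. In kidney they were 84.3% and 84.8% and in pancreas 80.1% and 85.1%. Read library by library, the difference was -30.8 and -18.7 points in the colon libraries and -1.13 and -0.49 points in those of kidney. The mean difference was -6.29 points with no more than the 20000 strongest peaks per list and -5.2 with lists of equal length. With members that had any H3K27ac peak in the lacking tissue left out it was -29.3 (exact permutation test, n = 8, adjusted p = 0.00781 in each case). On regions admitted by H3K4me3 of the other 7 tissues it was -11.7 ± 6.56 points, negative in 8 of 8 (exact permutation test, adjusted p = 0.00781). On all regions of 5 to 7 tissues, with no condition on H3K4me3, the shares were 63.1 ± 6.25% and 77.3 ± 4.41%, a difference of -14.2 points that was negative in 7 of 8 tissues (exact permutation test, adjusted p = 0.0156).

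H3K4me3 was more frequent at lacking members with an H3K27ac peak in 1 replicate than at those with none. Among lacking members with an H3K27ac peak in 1 replicate, 83.5 ± 4.42% had H3K4me3 in that tissue, against 58.8 ± 10.5% of those with no H3K27ac peak (SD, n = 8). The difference was 24.7 ± 7.22 points and above 0 in 8 of 8 tissues (the same exact test, p = 0.00781 before and after adjustment). Breadth was not matched between these groups. In skeletal muscle the shares were 87.4% of 841 and 67.5% of 973 members, in spleen 81.8% of 964 and 64.9% of 707, and in colon 85.8% of 584 and 61.4% of 500. Heart had the widest gap, 73.8% of 1005 against 35.4% of 432, and pancreas the values 83.3% of 288 and 64.9% of only 37. With lists of equal length the difference was 13.4 points (exact permutation test, n = 8, adjusted p = 0.00781). It was 24.7 points on regions admitted by the other 7 tissues and 30.7 on those admitted without H3K4me3, positive in 8 of 8 tissues in both. Combining both marks, H3K4me3 without any H3K27ac peak was found at 657 members in skeletal muscle, 459 in spleen, 307 in colon, 153 in heart, 100 in kidney, 80 in stomach, 38 in liver and 24 in pancreas. Neither mark was found at 316 members in skeletal muscle, 279 in heart, 248 in spleen, 193 in colon, 57 in kidney, 52 in stomach, 35 in liver and 13 in pancreas. In heart, members with neither mark outnumbered those with H3K4me3 alone, but heart was read from 1 H3K4me3 library and the others from 2. Read from 1 library at a time, the same order held in colon replicate 1 (314 against 186) and in both liver libraries (39 against 34 and 40 against 33).

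**Figure D3:**
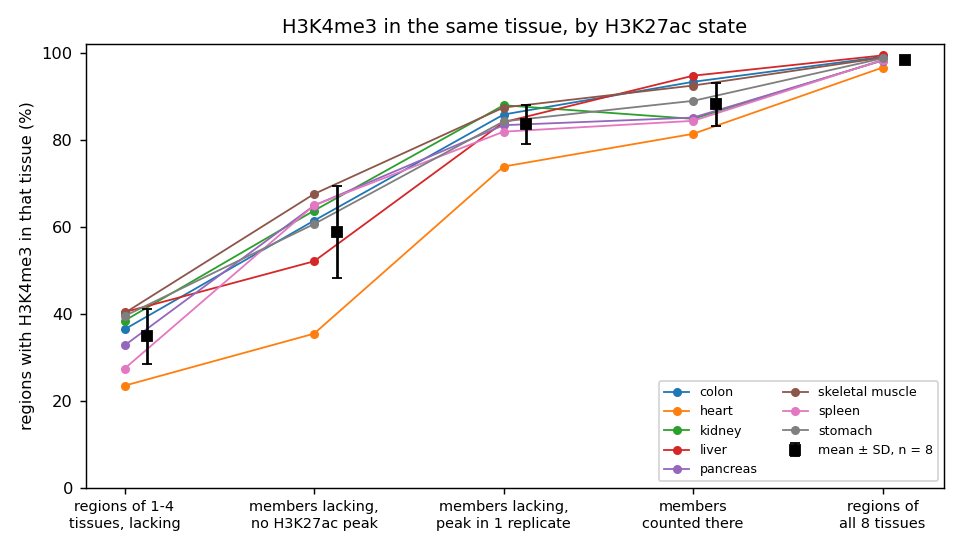
Share of regions with an H3K4me3 peak in the tissue concerned (vertical axis, %), for 5 groups of regions; coloured points joined by lines are tissues, and black squares with bars are the mean and SD of 8 tissues. The mean is 58.8% for lacking members without an H3K27ac peak, 83.5% with a peak in 1 replicate and 88.1% for members counted there.

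H3K4me3 peaks at lacking members were also weaker within their lists. In each H3K4me3 library the fold enrichment was ranked as a percentile, and members with a peak were compared. The median percentile was 48.2 ± 4.2 where H3K27ac was lacking and 57.1 ± 2.94 where it was counted (SD, n = 8). The difference of -8.97 ± 5.74 percentile points was below 0 in 8 of 8 tissues (the same exact test, p = 0.00781 before and after adjustment). It was widest in colon, where the libraries had 39.1 against 56.5 and 47.0 against 62.2, and in liver, with 41.1 against 56.8 and 45.1 against 60.6. It was narrow in spleen, with 47.3 against 47.8 and 51.1 against 54.3, and in pancreas replicate 1, with 50.5 against 51.0. All 15 libraries had the lower median at the lacking members. The H3K4me3 length within the region moved the same way, with medians of 633 bp against 912 bp in colon replicate 1 and 691 bp against 749 bp in spleen replicate 1. With members that had any H3K27ac peak in the lacking tissue left out, the percentile difference was -17.8 (exact permutation test, n = 8, adjusted p = 0.00781). Breadth was not matched in these percentile comparisons either, and how much of the differences comes with breadth was not tested.

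**Figure D4:**
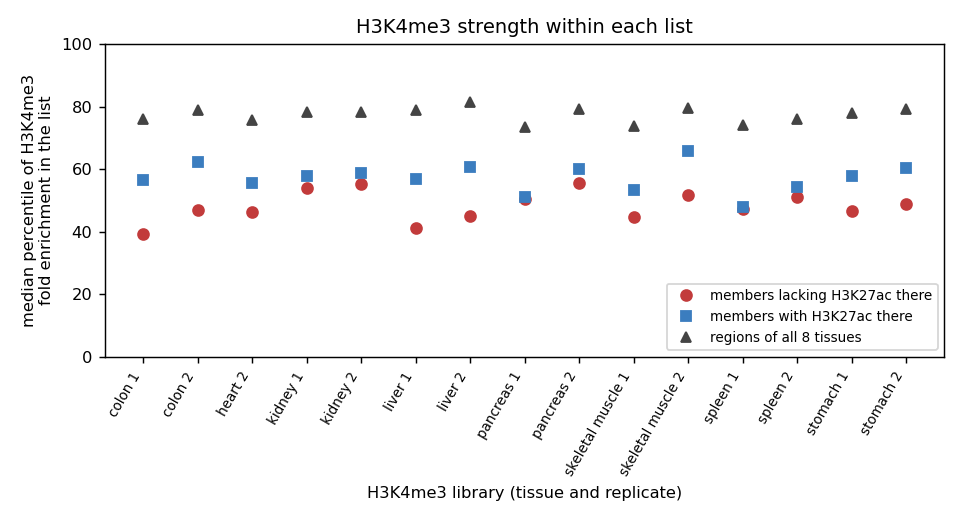
Median percentile of H3K4me3 fold enrichment within each of the 15 H3K4me3 lists (vertical axis), for members lacking H3K27ac in that tissue (circles), members counted there (squares) and promoter-like regions of all 8 tissues (triangles). The circles lie below the squares in every list and the triangles lie highest, from 73.4 to 81.3.

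Members had H3K4me3 more often than narrower promoter-like regions where H3K27ac was lacking. Where H3K27ac was present, their H3K4me3 ranked below that of fully shared regions. Where H3K27ac was lacking, 34.8 ± 6.38% of the promoter-like regions of 1 to 4 tissues had H3K4me3 in the tissue, 41.6 ± 4.60 points less than the 76.4% of members (SD, n = 8). The difference had the same sign in 8 of 8 tissues (the same exact test, p = 0.00781 before and after adjustment). The sets were not matched for lone H3K27ac peaks. Exactly 1 replicate had a peak at 61.4% of the lacking pairs of members and at 26.8% over all promoter-like regions. With lacking taken as no H3K27ac peak in either replicate, the difference was 33.2 ± 7.37 points (exact permutation test, n = 8, adjusted p = 0.00781). Within the members the share rose with breadth, from 69.6 ± 8.41% at regions of 5 tissues to 79.8 ± 5.77% at 6 and 86.7 ± 4.72% at 7. Where H3K27ac was present, the H3K4me3 percentile of members was 20.1 ± 2.11 points below that of the regions of all 8 tissues, which was 77.2 ± 1.66 (SD, n = 8). It was below in 8 of 8 tissues (the same exact test, p = 0.00781 before and after adjustment). All these sets had to overlap H3K4me3 somewhere, and 38.1% of the promoter-like regions of 1 tissue did so in 1 library alone. With regions admitted by the other 7 tissues the shares of members and of regions of 1 to 4 tissues were 76.4 ± 6.10% and 34.3 ± 6.11%. With no condition on H3K4me3 they were 63.1 ± 6.25% and 7.10 ± 1.3%. The sign was the same in 8 of 8 tissues in both.

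Member by member, H3K4me3 was found in every lacking tissue at 3497 members (74.3%), in some of them at 436 (9.26%) and in none at 775 (16.5%). No H3K27ac library of any lacking tissue had a peak at 763 members (16.2%). Of these, 452 had H3K4me3 in every lacking tissue, 257 in none and 54 in some. The order turned with breadth, since 342 had it in every and 93 in no lacking tissue among the 435 such regions counted in 7 tissues, whereas 40 of the 172 counted in 5 had it in every lacking tissue and 30 in some. In the triplet of heart, skeletal muscle and spleen the counts were 17 and 67. At 53 members (1.13%) H3K4me3 was also present in every counted tissue while both marks were missing from every lacking one, and that triplet held 23 of them. H3K27ac was present in at least 1 replicate of every lacking tissue at 2545 members (54.1%), including 1516 of the 1951 regions counted in 7 tissues (77.7%).

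Single regions illustrate these states, each being the one with the highest mean H3K27ac percentile elsewhere among the candidates of its kind. For skeletal muscle with H3K4me3 kept, the region lay at chromosome 6, 25104472 to 25108719 (calJac3, 4248 bp), the strongest of 125 candidates. Its H3K27ac percentile in the 14 libraries of the other tissues was at lowest 80.2, at median 95.0 and at highest 98.9, and neither skeletal muscle library had a peak. Its H3K4me3 percentile was 23.2 and 56.4 in skeletal muscle, against 55.4, 72.8 and 94.3 (lowest, median and highest) in the 13 libraries elsewhere. One skeletal muscle library thus lay below all others and one inside their range. For spleen, the region at chromosome 7, 129918328 to 129922362 (4035 bp, 63 candidates) had H3K27ac percentiles of 79.3, 91.7 and 98.5 elsewhere and none in spleen. Its H3K4me3 percentiles in spleen, 69.6 and 82.75, lay just below and within the range elsewhere (71.2, 83.7 and 92.4).

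Other tissues had such regions too, in smaller number. The stomach region at chromosome 12, 75198900 to 75200079 (1180 bp, 5 candidates) had H3K27ac percentiles of 80.5, 94.1 and 98.0 in the 14 libraries elsewhere, and H3K4me3 at 36.6 and 28.0 in stomach. The colon region at chromosome 8, 118530837 to 118531618 (782 bp, 43 candidates) reached 99.96 in H3K27ac and in H3K4me3 elsewhere, while its lowest H3K4me3 percentile elsewhere was 8.43. Colon itself had H3K4me3 at 65.4 and 34.0. The heart region lay on chromosome X, 124238808 to 124240325 (1518 bp, 10 candidates), with H3K27ac at a median of 69.9 and a highest of 91.8 elsewhere and H3K4me3 at 23.4 in the heart library. For kidney (chromosome 6, 93278858 to 93280147, 5 candidates), liver (chromosome 1, 104323332 to 104325478, 2 candidates) and pancreas (chromosome 15, 64245011 to 64247713, 2 candidates) the median H3K27ac percentiles elsewhere were 67.7, 83.1 and 79.6.

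Regions lacking both marks in 1 tissue differed in their H3K4me3 elsewhere. The spleen region at chromosome 16, 18754131 to 18756422 (2292 bp, 11 candidates) had H3K4me3 in all 13 libraries outside spleen, at percentiles of 22.2, 69.9 and 83.9, and in neither spleen library. Its H3K27ac percentiles elsewhere were 32.0, 88.9 and 98.0. The skeletal muscle region at chromosome 2, 47882748 to 47886825 (4078 bp, 37 candidates) had H3K4me3 in 11 of 13 libraries elsewhere, with H3K27ac at 56.2, 89.7 and 98.2. In the regions chosen for colon, heart, liver and stomach, H3K4me3 was scarce everywhere. It was found in 2 of 13 libraries elsewhere at the colon region (chromosome 2, 164997958 to 165003710, 5753 bp), in 4 of 14 at the heart region (chromosome 12, 75001933 to 75005922) and in 2 of 13 at the liver region (chromosome 15, 9699459 to 9702155). At the stomach region (chromosome 8, 95334338 to 95337134) it was found in 1 of 13, at percentile 5.90. At these regions most libraries of the acetylated tissues had no H3K4me3 peak either. Kidney and pancreas had no candidate without either mark.

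The region chosen for the triplet of heart, skeletal muscle and spleen was divided in the same way for both marks. It lay at chromosome 9, 111859636 to 111862690 (3055 bp, 97 candidates). H3K27ac was present in all 10 libraries of colon, kidney, liver, pancreas and stomach, at percentiles of 87.3, 93.0 and 96.1 (lowest, median and highest). H3K4me3 was present in all 10 libraries of the same tissues, at 71.1, 78.9 and 89.2. None of the 6 H3K27ac and 5 H3K4me3 libraries of the 3 lacking tissues had a peak. The region for heart with skeletal muscle (chromosome 16, 30907310 to 30910614, 37 candidates) was unlike it, with H3K4me3 in all 3 libraries of the lacking tissues, at 65.7 in heart and 76.6 and 85.3 in skeletal muscle, against 74.4, 87.9 and 95.8 elsewhere. The region for heart, kidney and spleen (chromosome 6, 149324248 to 149326196, 6 candidates) likewise had H3K4me3 in all 5 libraries of the lacking tissues. The regions for kidney with skeletal muscle (chromosome 12, 256192 to 259167) and for heart, kidney and skeletal muscle (chromosome 15, 9442604 to 9444676) had H3K4me3 in none of the lacking libraries and in 4 of 11 and 4 of 10 elsewhere. At the region for heart with spleen (chromosome 22, 42028004 to 42032348) it was present in heart, at percentile 9.48, and in neither spleen library, while 10 of 12 libraries elsewhere had it.

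**Figure D5:**
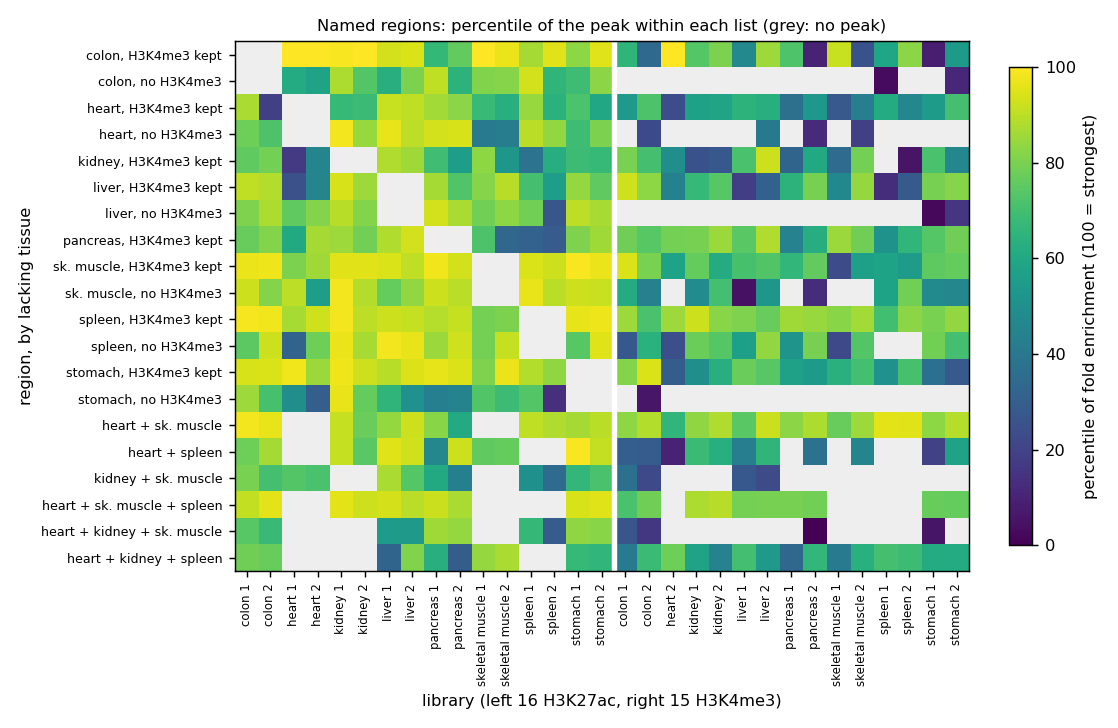
Percentile of the strongest peak within each list (colour, 100 is the strongest peak, grey is no peak) at the 20 named regions (rows, by lacking tissue) in 16 H3K27ac (left) and 15 H3K4me3 libraries (right). The row for heart, skeletal muscle and spleen is grey in the same tissues for both marks, whereas rows marked as kept are coloured for H3K4me3 where H3K27ac is grey.

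Members close to each other often lacked the same tissue. Of 377 pairs of successive members separated by up to 5 kb, 78.2% shared at least 1 lacking tissue and 18.8% had the same lacking set. At gaps of 5 to 50 kb the values were 52.1% and 6.52% of 752 pairs, and at 50 to 500 kb 51.7% and 5.98% of 2073 pairs. Over all pairs of members anywhere they were 47.8% and 4.36%. Of the members in 5 tissues 7.03% lay within 1 kb and 11.7% within 5 kb of a promoter-like region of all 8 tissues. Of those in 7 tissues the shares were 9.07% and 15.2%.

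Members were spread over all chromosomes, and the share lacking heart was higher on chromosome X than on the autosomes. They made up between 15.9% (chromosome 6) and 25.0% (chromosome 22) of the promoter-like regions of an autosome, 23.3% on X (152 of 652) and 2 of 26 on Y. Heart lacked 79 of the 152 members on X (52.0%) and 1383 of the 4341 on autosomes (31.9%). Stomach lacked 16.4% on X and 12.1% on autosomes, while spleen lacked 26.3% and 37.8%, skeletal muscle 37.5% and 40.7%, and colon 21.1% and 22.8%. Of the 79 members that heart lacked on X, 16.5% had no peak in either heart library and 74.7% had H3K4me3 in heart. The heart shares on X and autosomes were 17.9% and 13.8% without heart H3K27ac replicate 1, 39.2% and 24.1% without replicate 2, and 29.5% and 20.5% with lists of equal length. Heart was the tissue most often lacking on X with all libraries, but skeletal muscle lacked more in each of these settings, at 46.8%, 41.9% and 48.4% of X members. The X-autosome difference kept its direction in these 3 settings but not its size, and regions of 1 chromosome are not replicates, so it was not tested.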

How the data were processed

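Each of the 31 ChIP libraries was represented by the authors' deposited peak list in narrowPeak form, called per library. Per the submitters' processing notes the tools included MACS2 2.1.1.20160309, bedtools 2.26, Bowtie 1.1.2 and SAMtools 1.3.1, with no order given. The peak names carry the build calJac3. For the 8 input samples, the way they entered peak calling was not given in the sources used here, and they were not analysed. The deposited fold enrichment is a ratio from the authors' peak caller and was used only as a rank within 1 list. The deposited −log10 p and −log10 q values served only to shorten lists in alternatives, and their lowest values were 5.09 and 3.04. The deposited score was not used.

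Overlaps were computed with Python 3.11.15 and numpy 2.4.6, with figures from matplotlib 3.10.9. A shared stretch of 1 bp or more was an overlap, regions that touched were merged, and positions are 1-based. Percentages and medians were taken within each tissue, and 1 difference per tissue entered a two-sided exact sign-flip permutation test, with Benjamini-Hochberg adjustment over 5 comparisons. The overlap code was tested on simulated peak lists, and the permutation code on simulated independent normal values.

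Named regions lay on assembled chromosomes. For each tissue, the region of 7 tissues with the highest mean H3K27ac percentile elsewhere and no H3K27ac peak in the lacking tissue was taken, once with H3K4me3 in every library there and once with none. For the 3 most frequent lacking pairs and triplets the choice was the same, with no condition on H3K4me3. The members, lists and tests were chosen with earlier results of these data known. Gene lists and the check of tissue markers were not run, for want of an annotation of calJac3.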

Additional observations from a re-analysis of the deposited data

How the results depend on the processing

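The mean of each of the 5 H3K4me3 comparisons kept its direction and passed the threshold in all 211 recomputations, with adjusted p of at most 0.0156 (exact permutation tests over 7 or 8 tissues). None of the recomputations matched lacking and counted members by breadth. For the percentile comparisons, admitting regions without H3K4me3 had to return the main values, since only regions with an H3K4me3 peak in the list are ranked. In 5 of 43 recomputations of the first comparison and 1 of 42 of the second, 1 of the 8 tissues had the other sign. For the first these were -log10 q of at least 5, H3K4me3 in the central 300 bp, regions admitted without H3K4me3, and leaving out kidney H3K27ac replicate 2 or spleen H3K27ac replicate 1. For the second it was leaving out spleen H3K27ac replicate 2. When each of the 31 libraries was left out in turn, the lacking minus counted difference ranged from -14.7 to -10.8 points and the percentile difference from -10.5 to -8.46. The difference between 1 replicate and no peak ranged from 22.8 to 28.2, that between members and regions of 1 to 4 tissues from 38.9 to 41.9, and the percentile difference from regions of all 8 tissues from -21.1 to -19.7. The number of members ranged from 4598 to 4932. Settings other than leaving out a library moved these differences further. That between members and regions of 1 to 4 tissues was 33.2 with lacking as no peak in either replicate and 56 on regions admitted without H3K4me3. The percentile difference from regions of all 8 tissues was -13.9 with lists of equal length and -14.5 with the 20000 strongest peaks per list. Without each library in turn, the share of lacking members with H3K4me3 lay between 73.1% and 78.3%. That share was 88.2% with the 20000 strongest peaks of each list and 90.1% with lists of equal length, against 76.4%. The cause was not tested. With those settings the members numbered 4055 and 3784.

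With the replicate number as a block, which takes the difference within each replicate number's H3K4me3 library, the 5 values in the same order were -13.2, -8.97, 25.6, 41.7 and -20.1, and no call changed. The percentile values equal the main ones because those were already taken within libraries. Same-numbered libraries of the 2 marks did not deviate together within a tissue. Over 7 tissues the correlation across members of replicate differences in the 2 marks lay between -0.0107 and 0.0380. Over all 105 pairs of groups (tissue and mark) the highest correlation was 0.202, and 2 were above 0.1. H3K4me3 read in the central 300 bp of each region gave -14 points for the first comparison, and 5 strata of region length gave -12.3. Counts of lacking members per tissue moved by over 1.5 times in 12 of 288 recomputations, all from leaving out a library of that tissue or from shortening the lists. The choice of regions without H3K4me3 or by H3K4me3 of the other 7 tissues was added after the data were examined. The values for chromosome X, for stomach with colon and for the first pair and triplet were chosen after the data were examined, as were their alternatives. Absence of a peak depends on read depth, which is unknown here.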
